A study of Rattus rattus with 8 samples.

Results

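The liver makes most of the complement and coagulation proteins of blood plasma, and 40 of their genes were followed here. They were chosen by symbol, and all 40 were found by exact match among the 16945 genes named in the array's probe table and were tested. By role, 10 of them start or amplify complement, 6 form its terminal pathway, 4 restrain it, 12 are clotting factors or fibrinogen chains, and 8 are anticoagulants or proteins of clot breakdown and its inhibitors. Liver RNA came from 8 male rats of strain WH, listed in the labels as Rattus rattus, and each liver was hybridised to its own Agilent array in a single colour (Cy3). Sodium phenobarbital (NaPB), an inducer of drug-metabolising enzymes that acts through the nuclear receptor CAR, was mixed into the diet at 0 ppm for the 4 controls and at 2500 ppm for the 4 NaPB rats, and livers were taken after 7 days. The labels give no age, transgene or other treatment for either group.

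Complement is a chain of plasma proteases and binding proteins that marks microbes and damaged cells. It is started by antibody (the classical pathway), by sugars (the lectin pathway) or by slow turnover of C3 (the alternative pathway), and it ends in a pore that pierces membranes. Coagulation is a chain of the same kind that ends when thrombin turns fibrinogen into fibrin. Serine protease inhibitors (serpins) hold both chains back, the protein C system restrains coagulation, and plasmin dissolves the clot. Hepatocytes secrete most of these proteins, and several rise in the acute phase response to inflammation.

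Values are scaled intensity, the deposited spot brightness divided by the 75th percentile of the named features of that array. A change is the difference of mean log2 values, NaPB minus control, ± SE, with n = 4 rats per group, and p-values are from limma with Benjamini-Hochberg adjustment over 10944 genes. The number of arrays limits the precision. The arrays matched their labels in Cyp2b2, a P450 known for its induction by phenobarbital, which lay between 4.41 and 6.49 in controls and between 111 and 138 with NaPB. All 7 hepatocyte markers were measured, and 1 of them passed, Cps1, an enzyme of the urea cycle, which fell by 0.63 ± 0.09. Markers of other liver cells passed in a few cases, with 1 of 7 lower for Kupffer cells, 1 of 5 lower for sinusoidal endothelium, 2 lower and 1 higher of 7 for stellate cells, 1 of 4 higher for bile duct and 1 of 4 lower for lymphocytes, and with none of 3 for platelets. Passing means an adjusted p under 0.05, at which 4.29% of all genes tested were lower and 6.16% higher. Of the red cell markers neither of the 2 tested passed, though they had the lowest median change of these lists, -0.66, with Alas2 at -0.89 (adjusted p = 0.0521) and Hbb at -0.44 (0.173). The lymphocyte marker that passed, Cd8a, was at 0.0490 to 0.0807 in controls and 0.0362 to 0.0473 with NaPB. These values lie close to the floor of 0.03 to which low values were raised, and with a floor of 0.1 Cd8a was not tested. The part of any of these cell types in the results was not tested. In whole liver, fewer cells of a type and less RNA per cell cannot be told apart. NaPB replicate 1 stood apart from the other NaPB rats in the genes described here but not across the array, where its correlations with its group (r = 0.991 with every other NaPB array, over log2 values of named features) lay within those of the group as a whole (0.989 to 0.992). Results are therefore also given without it. That choice rests on the values of these same genes, so results without that rat are not independent evidence of a fall.

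Differences between the diets were small in complement and coagulation genes and nearly always negative. Of the 40 genes, 4 fell and none rose at an adjusted p under 0.05: Masp1 of the lectin pathway, clotting factor F5, and the serpins Serpind1 and Serpinf2. Among all genes tested 4.29% fell and 6.16% rose. That split depended on the scaling between arrays, since 58.9% of all changed genes rose with the scaling used, 50.2% after quantile normalization and 41.3% with arrays at the same median, while under those alternatives 6 and 8 of the 40 fell and none rose, against 5.74% and 6.95% of all genes that fell. At an unadjusted p under 0.05, 18 of the 40 were lower and 1 was higher, against 12.5% and 14.3% of all genes. The change was negative in 37 of 40, with a median of -0.18, whereas 49.8% of all genes tested had a negative change and their median was 0.0015. Among the 1095 genes tested with the highest mean levels (the top 10%), to which 29 of the 40 belong, the median was -0.0094. The changes ran from -0.56 for Masp1 to 0.38 for Klkb1. The 95% interval of the change lay between -1 and 1, that is within a 2-fold change either way, for 39 of the 40, the exception being Klkb1.

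**Figure D1:**
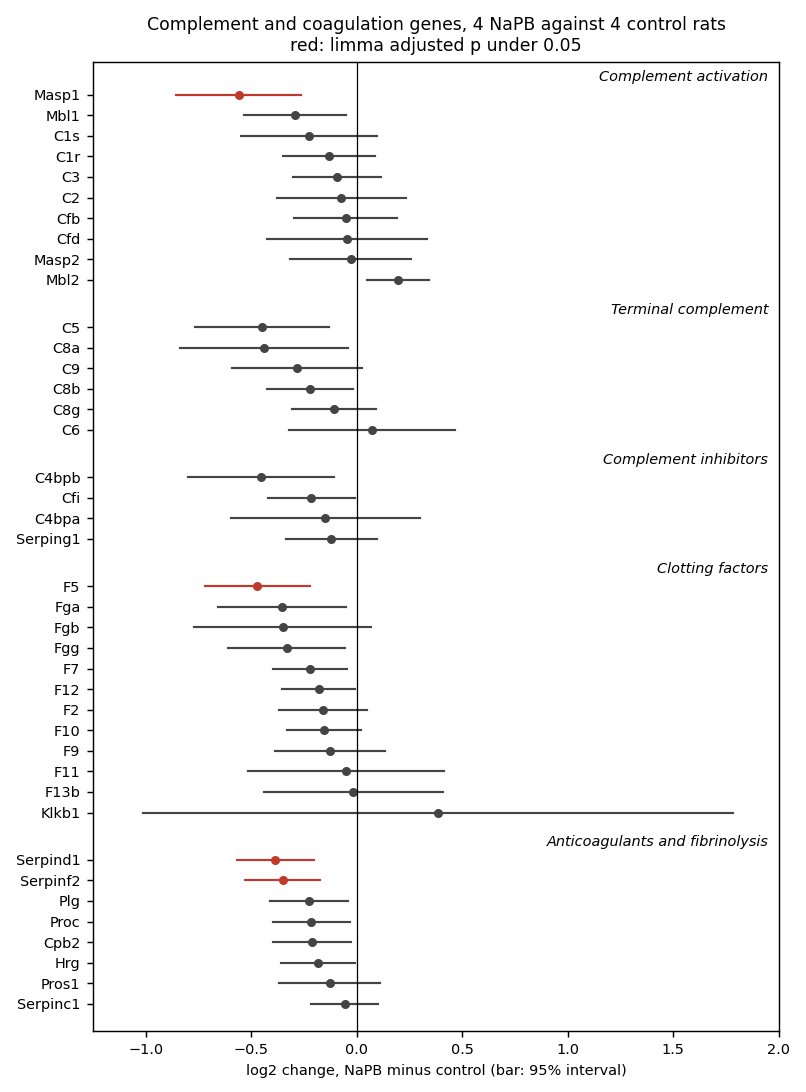
The log2 change (NaPB minus control, points) with its 95% interval (bars) is plotted for all 40 genes by role, with the 4 that passed the threshold in red. Points lie left of 0 for 37 genes, and Klkb1 has by far the widest interval, from -1.01 to 1.78.

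The NaPB rats differed from each other. Taken against the control mean, the median over the 40 genes was 0.02 on the log2 scale in NaPB replicate 1, -0.20 in replicate 2, -0.27 in replicate 3 and -0.33 in replicate 4, while the controls lay between -0.03 and 0.05. In NaPB replicates 2, 3 and 4, 30, 29 and 35 of the 40 genes lay below all 4 controls, against 23.4%, 30.2% and 29.7% of all genes tested on those arrays. In NaPB replicate 1 it was 8 of 40, against 23.1%. Among the NaPB rats, replicate 1 held the highest value of 29 of the 40 genes (25.3% of all genes) and replicate 4 the lowest of 22 (30.3% of all genes). Cyp2b2 was as high in NaPB replicate 1, at 137, as in the other NaPB rats.

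The spread of the 40 genes was correspondingly wider with NaPB. The median SD within a group was 0.10 among controls and 0.17 among NaPB rats, against 0.14 and 0.15 over all genes tested. When NaPB replicate 1 was left out, 11 of the 40 fell and none rose, against 3.3% and 4.64% of all genes in that fit. The rat was picked by its values in the 40 genes, so the shares of all genes are not a like comparison. These 11 were the 4 named above together with C1s, C5, C9, C4bpb and the fibrinogen chains Fga, Fgb and Fgg. Without that rat the change of 12 of the 40 genes became larger by over 1.5 times, those of C1s, C1r, C2, C3, Cfb, Cfd, C4bpa, F11, F13b, Fgb, Pros1 and Serpinc1, and that of C6 and Klkb1 smaller by over 1.5 times. When control replicate 1 was left out instead, none of the 40 passed in limma, where 2.6% of all genes fell, with 10 lower and 1 higher at an unadjusted p under 0.05, against 1161 lower and 1363 higher of 10839 genes. Leaving out NaPB replicate 4 left 1 call, where 2.62% of all genes fell. Leaving out control replicate 2, 3 or 4 left 2 calls each, all lower, where 2.22%, 2.72% and 3.93% of all genes fell, and leaving out NaPB replicate 2 or 3 also left 2, where 3.26% and 2.9% fell.

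**Figure D2:**
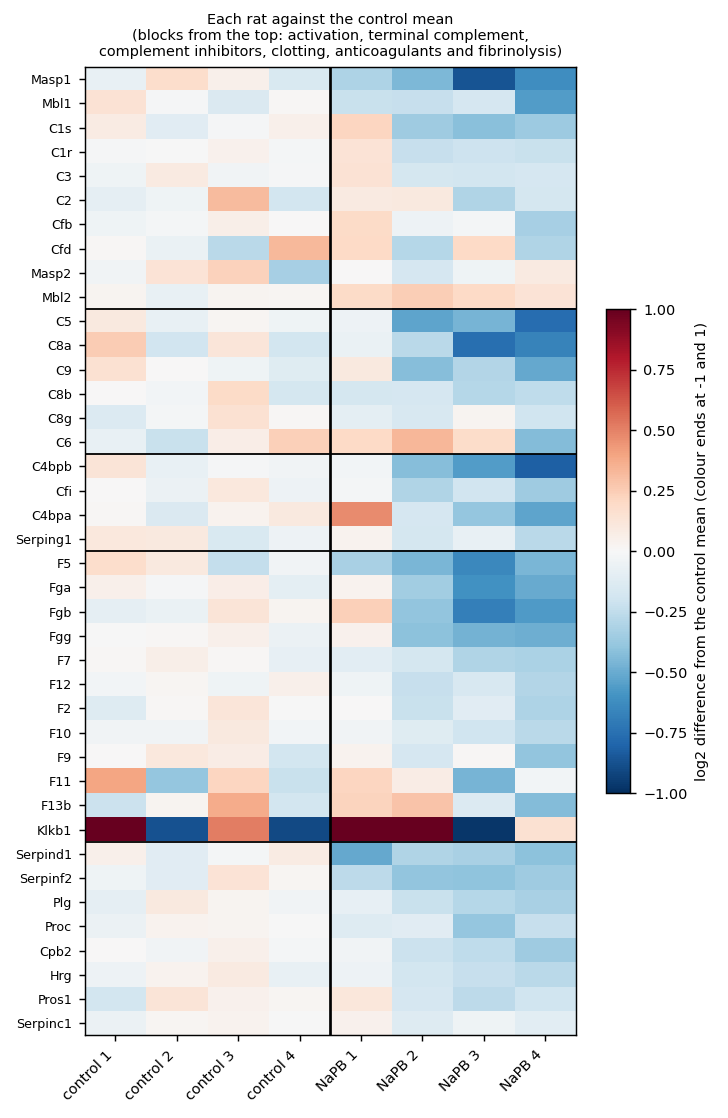
Colour shows the log2 difference of each rat (columns) from the mean of the controls for each of the 40 genes (rows, in blocks by role), with blue for lower and red for higher. The columns of NaPB replicates 2, 3 and 4 are mostly blue, and that of NaPB replicate 1 is mixed. The row of Klkb1 runs past the upper end of the scale in either diet and comes near the lower end.

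Of the 10 genes that start or amplify complement, 1 fell and none rose, against 4.29% and 6.16% of all genes. At an unadjusted p under 0.05, 2 were lower and 1 was higher, against 12.5% and 14.3%. The median change was -0.08. Masp1 encodes proteases of the lectin pathway that are carried by mannose-binding lectin. Its scaled intensity was 0.976, 1.16, 1.06 and 0.922 in control replicates 1 to 4 and 0.831, 0.751, 0.565 and 0.668 in NaPB replicates 1 to 4. Every NaPB rat lay below every control, as was so for 8 of the 40 genes and for 8.36% of all genes tested. Masp1 fell by 0.56 ± 0.13 (adjusted p = 0.03), a percent change in intensity of -32.2. All 4 of its features were lower, by amounts between -0.20 and -0.81 that differ widely for a single gene. The call was lost when control replicate 1, 2 or 3 or NaPB replicate 4 was left out (adjusted p up to 0.0839) and when no filter on low values was set (0.0824).

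The partners of Masp1 did not pass and pointed different ways. Mbl1, a mannose-binding lectin that recognises sugars on microbes, was at -0.29 ± 0.11 (adjusted p = 0.116), with all NaPB rats between 10.8 and 14.1 and all controls between 14.3 and 17.5. Mbl2, the other mannose-binding lectin, was at 0.19 ± 0.07 (adjusted p = 0.0972). It was the only one of the 40 whose NaPB values, 7.62 to 8.23, all lay above the controls, 6.60 to 7.07, as 10.8% of all genes did. Masp2, the protease that cleaves C4 and C2 in the lectin pathway, was at -0.03 ± 0.13, and the sign turned when only its brightest feature was used (0.15).

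C3, the protein on which all 3 starting pathways converge, had a scaled intensity of 288, 315, 289 and 294 in control replicates 1 to 4 and 327, 263, 261 and 264 in NaPB replicates 1 to 4. NaPB replicate 1 was the highest of all 8 rats and the other 3 NaPB rats were the lowest. The change of C3 was -0.10 ± 0.09 (adjusted p = 0.549), with a 95% interval from -0.31 to 0.11, and it turned to 0.05 after quantile normalization. The classical pathway proteases C1s and C1r, whose genes are neighbours, followed the same pattern over the rats. C1s was at 30.2 in NaPB replicate 1 and between 19.4 and 20.3 in the other NaPB rats, against 24.0 to 27.4 in controls, and C1r was at 28.7 and between 22.2 and 22.5, against 25.7 to 26.8. Their changes over all rats were -0.23 ± 0.14 and -0.13 ± 0.10, and neither passed. Without NaPB replicate 1 they were -0.38 (adjusted p = 0.0318) and -0.22 (0.0983), and C3 was at -0.17 (0.196).

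The protease components of the C3 convertases were close to the controls. C2, the protease of the classical and lectin convertase, was at -0.07 ± 0.14, and its neighbour gene Cfb, which provides the protease of the alternative pathway, was at -0.05 ± 0.11. Cfd, the enzyme that activates factor B and is known as adipsin from its secretion by fat cells, was at -0.05 ± 0.17. Without NaPB replicate 1 the values of C2, Cfb and Cfd were -0.13, -0.13 and -0.13, and none passed. Of the 2 adipocyte markers tested, out of a list of 5, 1 passed upward, against 6.16% of all genes. It was Lpl, a lipase of triglyceride-rich lipoproteins, with 0.03002 to 0.0651 in controls and 0.0838 to 0.162 with NaPB. The controls lie close to the floor of 0.03 to which low values were raised, and with a floor of 0.1 the change moved from 1.85 to 0.51 and the call was lost (adjusted p = 0.0515). The summed level of the list was 0.16 to 0.23 in controls and 0.24 to 0.45 with NaPB, and 2 of its genes, Plin1 and Lep, lay at the floor on all arrays. The part of fat cells in the level of Cfd was not tested.

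In the terminal pathway none of 6 genes passed, though the median change of -0.25 was the lowest of the 5 roles. At an unadjusted p under 0.05, 3 were lower, against 12.5% of all genes. C5, whose cleavage opens this pathway, had a scaled intensity of 76.8, 68.1, 72.4 and 69.4 in control replicates 1 to 4 and 69.1, 49.7, 52.0 and 42.1 in NaPB replicates 1 to 4. NaPB replicate 1 lay among the controls, and the other NaPB rats were below all of them. The change was -0.45 ± 0.14 (adjusted p = 0.0762), with all 10 features between -0.39 and -0.49. C5 passed after quantile normalization (-0.49, adjusted p = 0.0334) and with arrays brought to the same median (-0.51, adjusted p = 0.0414).

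C9, which polymerises into the wall of the pore, had a scaled intensity of 93.6, 84.4, 81.6 and 77.2 in control replicates 1 to 4 and 89.9, 62.4, 68.5 and 59.0 in NaPB replicates 1 to 4. Again the first NaPB rat was within the control range and the other 3 were below it, and the change was -0.28 ± 0.14 (adjusted p = 0.220). The 3 chains of C8, which anchors the pore in the membrane, were at -0.44 ± 0.17 (C8a), -0.22 ± 0.09 (C8b) and -0.11 ± 0.09 (C8g). C8a and C8b are neighbouring genes, and neither passed (adjusted p = 0.146 and 0.156). C6, which binds C5b first, was at 0.07 ± 0.17 (0.03 without NaPB replicate 1), and C7, the next component, at -0.02 ± 0.36.

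The 4 complement inhibitors had negative changes, with a median of -0.18, and none passed. At an unadjusted p under 0.05, 2 were lower, against 12.5% of all genes. C4bpb, the beta chain of the C4b-binding protein that limits the classical convertase and carries protein S, had a scaled intensity of 114, 99.5, 104 and 102 in control replicates 1 to 4 and 103, 78.1, 71.2 and 59.6 in NaPB replicates 1 to 4. Its change was -0.46 ± 0.15 (adjusted p = 0.0956), and apart from NaPB replicate 1 the groups did not overlap. C4bpa, the alpha chain encoded beside it, was at -0.15 ± 0.20 and spread more widely, from 92.2 in NaPB replicate 1 to 46.0 in NaPB replicate 4, with controls between 60.1 and 70.9. Without NaPB replicate 1 it was at -0.36 (adjusted p = 0.0883) and C4bpb at -0.60 (0.0186). Cfi, the protease that cuts C3b and C4b, was at -0.22 ± 0.09, with all 10 features negative. Serping1, the C1 inhibitor that also blocks kallikrein and factor XIIa, was at -0.12 ± 0.10.

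Of the 12 clotting factors 1 fell and none rose, against 4.29% and 6.16% of all genes, with a median of -0.17. At an unadjusted p under 0.05, 5 were lower and 0 higher, against 12.5% and 14.3%. F5, the cofactor with which factor Xa makes thrombin, had a scaled intensity of 4.68, 4.43, 3.52 and 4.04 in control replicates 1 to 4 and 3.30, 3.02, 2.65 and 3.02 in NaPB replicates 1 to 4. The groups did not overlap, and the lowest control was close to the highest NaPB rat. F5 fell by 0.47 ± 0.11 (adjusted p = 0.0296), with a percent change of -27.9 and both features alike at -0.46 and -0.48. The call was lost when any array other than control replicate 3 or NaPB replicate 1 was left out (adjusted p up to 0.0842) and when no filter on low values was set (0.0693).

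**Figure D3:**
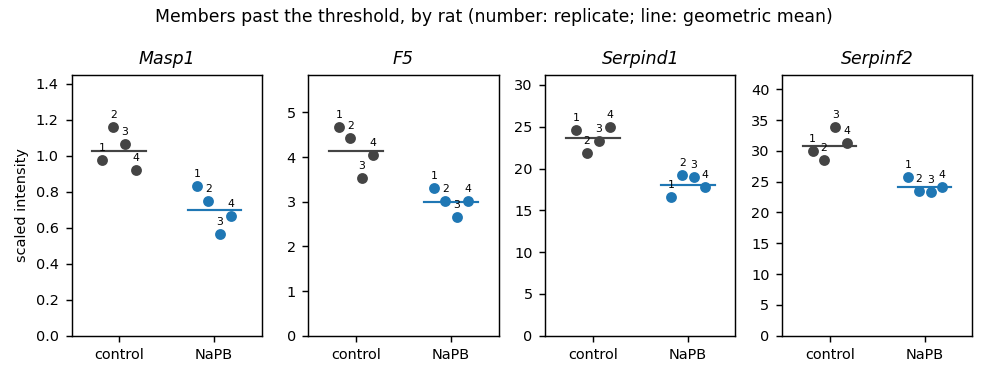
Scaled intensity (linear axis from 0) is shown for the 4 genes that passed, with a numbered point per rat and a line at the geometric mean of each diet group (controls grey, NaPB blue). In each panel all 4 NaPB rats lie below all 4 controls, including NaPB replicate 1.

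The 3 fibrinogen chains, encoded side by side and joined into the precursor of fibrin, had like mean changes and did not pass. Fga had a scaled intensity of 207, 199, 209 and 187 in control replicates 1 to 4 and 205, 157, 132 and 141 in NaPB replicates 1 to 4, a change of -0.36 ± 0.13 (adjusted p = 0.128). Fgg was at 232, 235, 241 and 223 in controls and 239, 175, 167 and 165 in NaPB replicates 1 to 4, a change of -0.33 ± 0.12 (adjusted p = 0.120). In both, NaPB replicate 1 lay within or close to the control range and the other NaPB rats were below it.

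Fgb was at 45.05, 45.8, 52.7 and 49.0 in control replicates 1 to 4 and at 56.7, 36.5, 29.9 and 32.5 in NaPB replicates 1 to 4. Its change was -0.35 ± 0.19 (adjusted p = 0.262), a mean over 3 features that disagree. The 2 features annotated with a RefSeq transcript changed by -0.09 and -0.03, and the third, a much dimmer feature annotated with a GenBank sequence, by -0.94. With RefSeq features alone the change of Fgb was -0.06, so the likeness of the 3 chains rests on that dim feature, as does the fall of Fgb without NaPB replicate 1 (-0.55 with all features, -0.13 with RefSeq features, adjusted p = 0.0185 and 0.367).

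**Figure D4:**
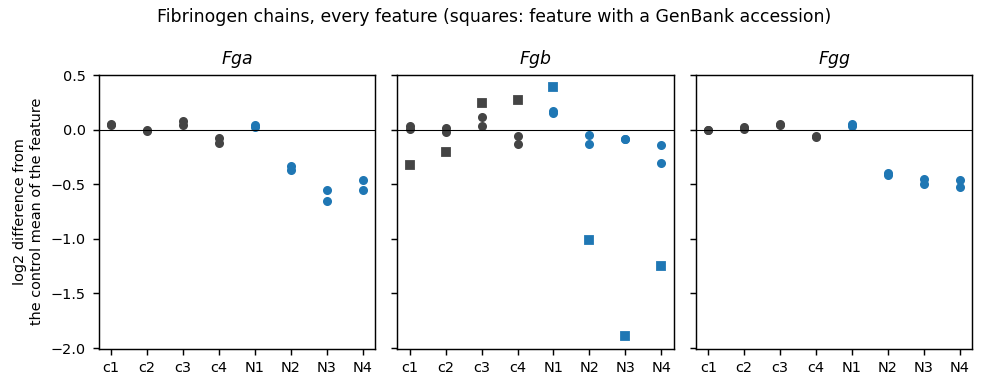
Each point is a feature on an array, as the log2 difference from the mean of that feature in the controls, for control (c1 to c4, grey) and NaPB rats (N1 to N4, blue). Both features of Fga and of Fgg lie below 0 in NaPB replicates 2 to 4, whereas for Fgb the feature with a GenBank sequence (squares) drops much further than the others (circles).

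None of the clotting factors that depend on vitamin K, which lets them bind calcium, passed. F2, the prothrombin gene, had a scaled intensity of 203, 224, 242 and 222 in control replicates 1 to 4 and 223, 190, 205 and 180 in NaPB replicates 1 to 4. The groups overlap, and the change was -0.16 ± 0.09 (adjusted p = 0.302). F7, which starts clotting with tissue factor, was at -0.22 ± 0.08 (adjusted p = 0.103), and its values of 1.02 to 1.18 with NaPB lay below those of 1.2 to 1.32 in controls. Its neighbour F10, which makes thrombin together with F5, was at -0.16 ± 0.08, and F9, the factor lost in haemophilia B, was at -0.13 ± 0.12. With the anticoagulants Proc and Pros1, all 6 vitamin K-dependent members had a change between -0.22 and -0.13, and none passed. Ggcx and Vkorc1, the enzymes that carry out and recharge the vitamin K reaction, were at 0.14 ± 0.11 and 0.02 ± 0.11, the latter turning to -0.03 after quantile normalization.

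Among the factors of contact activation, F12 was at -0.18 ± 0.08 (adjusted p = 0.169) and passed only after quantile normalization (-0.25, adjusted p = 0.0448). F11, which F12 activates, was at -0.05 ± 0.20. F13b, the carrier subunit of the factor that cross-links fibrin, was at -0.02 ± 0.19 and turned to 0.03 with array weights. Without NaPB replicate 1, F11 was at -0.14 and F13b at -0.10.

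Klkb1, which encodes plasma prekallikrein, stood out by its spread and was singled out after its values were seen. Its scaled intensity was 25.8, 5.92, 15.4 and 5.78 in control replicates 1 to 4 and 24.9, 24.0, 5.50 and 12.01 in NaPB replicates 1 to 4. High, middle and low rats occurred under both diets. The SD within a group was 1.07 on the log2 scale in controls and 1.03 with NaPB, against 0.14 and 0.15 for the median gene, and both features separated the same high, middle and low rats. The change was 0.38 ± 0.62 (adjusted p = 0.727), so a difference of up to 1.78 upward or 1.01 downward lies within its 95% interval. Without NaPB replicate 1 the change was 0.11 (adjusted p = 0.938).

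**Figure D5:**
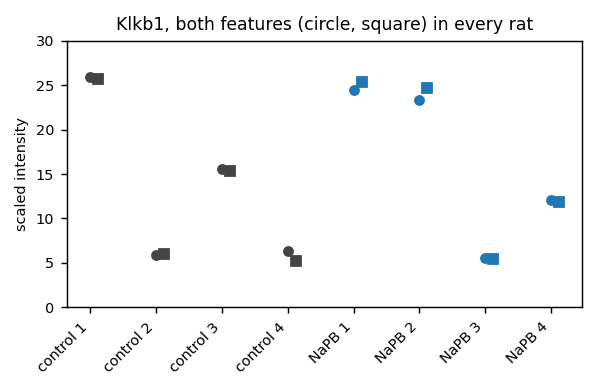
Scaled intensity of Klkb1 (linear axis from 0) is shown for every rat with both features (circle and square). The features agree closely within a rat, while rats of either diet range from near 5.5 to near 25.

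The anticoagulants and the genes of clot breakdown held 2 of the 4 falls, that is 2 of 8 genes, against 4.29% of all genes. All 8 had a negative change, against 49.8% of all genes, with a median of -0.21. At an unadjusted p under 0.05, 6 were lower and 0 higher, against 12.5% and 14.3%. Serpind1, heparin cofactor II, which inhibits thrombin, had a scaled intensity of 24.6, 21.9, 23.3 and 25.0 in control replicates 1 to 4 and 16.6, 19.2, 18.9 and 17.8 in NaPB replicates 1 to 4. All NaPB rats were below all controls, and NaPB replicate 1 was the lowest, unlike in most of the other genes. Serpind1 fell by 0.39 ± 0.08 (adjusted p = 0.0186), with a percent change of -23.5 and 10 of 10 features lower, between -0.34 and -0.42. The call was lost only without control replicate 1 (adjusted p = 0.0550) among the single arrays left out.

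Serpinf2, the antiplasmin that protects clots from being dissolved, had a scaled intensity of 29.9, 28.4, 33.9 and 31.3 in control replicates 1 to 4 and 25.8, 23.5, 23.4 and 24.1 in NaPB replicates 1 to 4. The groups did not overlap, and the NaPB rats lay close together. Serpinf2 fell by 0.35 ± 0.08 (adjusted p = 0.0259), with a percent change of -21.7. The call was lost when any array other than control replicate 2 or NaPB replicate 1 was left out (adjusted p up to 0.0625).

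Serpinc1, antithrombin, the main plasma inhibitor of thrombin and factor Xa, had a scaled intensity of 8.84, 9.34, 9.45 and 9.19 in control replicates 1 to 4 and 9.49, 8.44, 8.92 and 8.55 in NaPB replicates 1 to 4. The groups overlap, and the change was -0.06 ± 0.07 (adjusted p = 0.634), with a 95% interval from -0.22 to 0.10. Of its 3 features 1 lay at the floor in all 8 rats, which lowers the mean level and draws the mean change toward 0. The other 2, which are annotated with a RefSeq transcript, ranged from 139 to 177 in controls and from 131 to 187 with NaPB, and with these alone the change was -0.09. Without NaPB replicate 1 the change was -0.09 with all 3 features and -0.14 with the RefSeq features alone (limma adjusted p = 0.482 and 0.324). Of the 4 serpins among the 40 genes, 2 fell, against 4.29% of all genes, and Serpinc1 and Serping1 did not pass.

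Plg, plasminogen, the zymogen of plasmin, had a scaled intensity of 91.8, 105, 99.5 and 95.7 in control replicates 1 to 4 and 92.6, 83.9, 80.4 and 78.0 in NaPB replicates 1 to 4. NaPB replicate 1 lay within the control range and the others below it, and the change was -0.23 ± 0.08 (adjusted p = 0.114). Of its 11 features 10 lay between -0.20 and -0.13 and a dim one at -0.76. The dim feature draws the mean level and the mean change of Plg below those of each of the other 10. Cpb2, a carboxypeptidase that slows clot breakdown, was at -0.21 ± 0.08, and Hrg, a histidine-rich glycoprotein that binds plasminogen and heparin, at -0.18 ± 0.08. Proc, the zymogen of the anticoagulant protease that inactivates factors Va and VIIIa, was at -0.22 ± 0.08, with 10 of 10 features negative, and Pros1, its cofactor protein S, at -0.13 ± 0.11 (-0.21 without NaPB replicate 1). Proc and Cpb2 were lower in every NaPB rat than in every control, though their adjusted p was 0.127 and 0.136. Plg, with its dim feature included, and Proc passed with arrays brought to the same median (adjusted p = 0.0453 and 0.0437), as did F7 (0.0400).

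The median change was -0.08 for complement activation, -0.25 for terminal complement, -0.18 for complement inhibitors, -0.17 for clotting factors and -0.21 for anticoagulants and clot breakdown, and the difference between roles was not tested. The least spread within groups was found among the anticoagulants and clot breakdown genes, with a median SD of 0.09, against 0.21 for terminal complement and 0.17 for clotting factors. In NaPB replicate 1 the medians of the 5 roles lay between -0.07 and 0.14 relative to the control mean, and in NaPB replicate 4 between -0.47 and -0.26.

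Other genes of both chains were taken from a separate list of 49, of which 41 are named on the array and 35 were tested. Of these 1 rose and none fell, against 6.16% and 4.29% of all genes. At an unadjusted p under 0.05, 5 were higher and 8 lower, against 14.3% and 12.5%. The median was -0.18, and 24 of 35 changes were negative, against 49.8% of all genes. Cd59, the membrane protein that stops C9 from forming the pore, rose by 0.32 ± 0.08 (adjusted p = 0.0319), from 4.42 to 4.96 in controls to 5.54 to 6.31 with NaPB. The call was lost when any array other than control replicate 4 or NaPB replicate 4 was left out (adjusted p up to 0.0827) and with its brightest feature alone (adjusted p = 0.0729).

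Of 27 other plasma proteins of hepatocytes tested, 5 fell and 2 rose, against 4.29% and 6.16% of all genes. Their median was -0.11, and 22 changes were negative, against 49.8% of all genes. Afm, an albumin-like carrier of vitamin E, fell by 0.75 ± 0.08 (adjusted p = 0.000876), whereas Orm1, an acute phase glycoprotein, rose by 0.71 ± 0.19 (adjusted p = 0.0456). A1bg, a plasma glycoprotein, also passed upward (adjusted p = 0.0398), but its values of 0.0352 to 0.320 in controls and 0.265 to 1.254 with NaPB overlap and reach down to near the floor of 0.03 in 2 controls. The size of its change is therefore set in part by the floor, being 3.00 with the floor used and 2.25 with a floor of 0.1. The call of Orm1 was lost when any array other than NaPB replicate 4 was left out (adjusted p up to 0.103), and that of A1bg without any array other than control replicate 4 or NaPB replicate 2 (up to 0.100). Taken by rat, the median of these proteins against the control mean was close to 0 in NaPB replicate 1 and between -0.24 and -0.11 in the others. The summed level of the 7 hepatocyte markers was 1171 to 1282 in controls and 1020 to 1165 with NaPB, with a median change of -0.18. The part of hepatocyte RNA content in the changes of the 40 genes was not tested.

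Regulators of liver secretory genes had mostly negative changes, 11 of 15 tested, with a median of -0.18. At the threshold 1 rose and 2 fell, against 6.16% and 4.29% of all genes. At an unadjusted p under 0.05, 1 was higher and 5 were lower, against 14.3% and 12.5%. Hnf4a, a nuclear receptor required for many hepatocyte genes, rose by 0.57 ± 0.10 (adjusted p = 0.0123, and 0.0542 with the replicate number as a block). Foxa3, a forkhead factor of liver, fell by 1.22 ± 0.25 (adjusted p = 0.0179), and Prox1, a homeobox factor, passed downward (adjusted p = 0.0289), with 0.0553 to 0.107 in controls and 0.0316 to 0.0464 with NaPB. These values lie so close to the floor that no size is given, and with a floor of 0.1 Prox1 was not tested. The call of Prox1 was lost without control replicate 3, NaPB replicate 3 or NaPB replicate 4 (adjusted p up to 0.0694).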

How the data were processed

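Liver RNA of 8 rats was hybridized to 1 array each, 4 controls and 4 NaPB rats, grouped by the diet dose in the labels. The deposited intensity values (Cy3) are on a linear scale. Their 75th percentiles over features with a symbol were alike between arrays, from 1.077 to 1.088. Any scaling by the authors is not given in the sources used. Agilent Feature Extraction 10.7 is named in the submitters' processing notes. Background subtraction is not given in the sources used, and spot flags were not used. Of 62976 features, 45904 carried 1 symbol in the probe table. Arrays were brought to a common 75th percentile over those features, a floor of 0.03 was applied, and log2 values were averaged over the features of a gene. A gene entered the test when 3 or more arrays of either group exceeded the floor (10944 of 16945) with limma 3.58.1 in R 4.3.3, two-sided, with Benjamini-Hochberg adjustment and a threshold of 0.05. The fit was tested on simulated data with independent noise and planted changes larger than that of any gene followed here. That check does not cover changes of their size. Figures were drawn with matplotlib 3.10.9.

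The members, lists and alternatives were chosen with earlier results of these data known. Values in every rat are given for members past the threshold, for the largest change of a role without a call, and for C3, C9, F2, Fga, Fgb, Fgg, Serpinc1 and Plg. Of the other lists, genes past the threshold are named, at most 10 of the pathway list and the 3 largest changes of the other lists, and further genes are named only as partners or neighbours of members. Neighbouring genes are those with no protein-coding gene between them in a Rattus rattus RefSeq assembly, of which no coordinates were used. Replicate numbers belong to different animals, and the deviations of same-numbered rats correlated at r between -0.13 and 0.08 across genes, so they were not treated as pairs. No slide or date was given, so batches were not tested.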

Additional observations from a re-analysis of the deposited data

Results flagged for a closer look

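In 7 of the 80 sets of 4 rats (40 genes under each diet) 1 rat lay far from the other 3 by Dixon's ratio, of which chance gives about 5%. In 4 of the 7 that rat was NaPB replicate 1, always as the highest. C1s was at 30.2 there against 19.4 to 20.3 in the other NaPB rats, and C1r at 28.7 against 22.2 to 22.5. C3 was at 327 against 261 to 264, and Fgg at 239 against 165 to 175. Of the other 3, Mbl1 was low in NaPB replicate 4, at 10.8 against 13.5 to 14.1. Mbl2 was low in control replicate 2, at 6.60 against 7.03 to 7.07. F10 was high in control replicate 3, at 31.5 against 28.8 to 29.0.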

How the results depend on the processing

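All 4 falls kept their calls after quantile normalization, with arrays at the same median, on the deposited scale, with a floor of 0.1, with the brightest feature, with a trended and robust variance prior, with array weights and, as an alternative chosen after seeing the data, with RefSeq features only. The number of members that fell was 8 with arrays at the same median, 2 with no filter on low values (where Mbl2 rose, the single member to do so) and 1 with the replicate number as a block, namely F5. Among all genes 6.95%, 1.64% and 2.09% fell in those fits, in that order, and 461 of 16945 rose with no filter. Leaving out 1 array gave 0 to 11 falls, 625 to 980 changed genes in all and 0 to 2 changed genes of the pathway list. All changed genes numbered 739 with no filter and 583 with the replicate block. Those of the pathway list numbered 2 after quantile normalization, 3 with arrays at the same median, with the trended prior and with array weights, 5 with a floor of 0.1 and 0 with the replicate block (1 in the fit reported). Signs turned for values near 0 only: C3 to 0.0494 and Cfb to 0.0051 after quantile normalization, Vkorc1 to -0.0263 there and to -0.0364 with arrays at the same median, Masp2 to 0.15 with the brightest feature and F13b to 0.02997 with array weights. With 1 array left out, ranges that crossed 0 were -0.13 to 0.0323 for C2, -0.13 to 0.0381 for Cfb, -0.14 to 0.0611 for Cfd, -0.14 to 0.0467 for Masp2, -0.0164 to 0.24 for C6, -0.18 to 0.0875 for F11, -0.12 to 0.12 for F13b, -0.0338 to 0.10 for Vkorc1 and -0.30 to 0.20 for C7. Outside the members, the calls of A1bg, Orm1, Foxa3 and Prox1 were lost with no filter (adjusted p up to 0.139), those of Orm1 and Prox1 with the brightest feature (up to 0.0750), that of Cd59 with its brightest feature (0.0729), that of Orm1 with arrays at the same median (0.0502), that of Lpl with a floor of 0.1 (0.0515) and those of Cd59 (0.108), Hnf4a (0.0542), Prox1 (0.0572) and Ahsg, another plasma protein (0.0541), with the replicate block. A further fit, also chosen after seeing the data, used RefSeq features only and left out NaPB replicate 1 as well. In it 10 members fell and 2 genes of the pathway list changed. Among all genes 3.25% fell there, not a like comparison since that rat was picked by the 40 genes. Fgb was the single member called without NaPB replicate 1 that lost its call there, and Vkorc1 stood at -0.00357 and C7 at 0.0184. The cause of these changes was not tested. Saturation of the brightest features could not be judged without flags.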

Other observations

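In 2 members a feature annotated with a GenBank sequence was far dimmer than the RefSeq features of the same gene and had a larger negative change: -0.94 in Fgb and -0.76 in Plg, against -0.09 to -0.03 and -0.20 to -0.13. In Masp1 the GenBank feature changed by -0.81, against -0.69 to -0.20, at a control level close to that of the dimmest RefSeq feature. Masp2 went the other way, its GenBank feature being brighter than the RefSeq features in every rat and changing by 0.15, against -0.13 and -0.11. In Serpinc1 such a feature lay at the floor in all rats. These features were compared after their values were seen, and which transcripts they detect was not tested. Hrg has as its neighbours Fetub, a plasma cystatin, and Kng1, the kininogen cleaved by kallikrein. Fetub fell by 0.59 ± 0.09 (adjusted p = 0.00673), while Hrg was at -0.18 ± 0.08 and Kng1 at -0.29 ± 0.24, and neither of these passed.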
